A study of Mus musculus with 20 samples.

Results

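The genes examined were the 80 mouse genes that encode the proteins of the cytosolic ribosome, chosen by symbol among the 31053 genes counted. A gene was a member when its symbol was Rpl or Rps followed by a number, with or without a closing a, l or x, or when it was Rpsa, Rplp0, Rplp1 or Rplp2. The rule used no measured value. It took 49 genes of the large (60S) subunit and 31 of the small (40S) subunit, and 79 of the 80 had at least 1 unique molecular identifier (UMI, the tag that marks a single captured mRNA) in the cells kept. Rps3a1, Rpl22l1, Rpl36al and Rpl7l1 also encode ribosomal proteins or close relatives, but their symbols fall outside the rule.

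A ribosome holds a single copy of nearly every ribosomal protein, so a cell makes these proteins in matched amounts. Their mRNAs are short, abundant and stable. Most start with a 5′ terminal oligopyrimidine (TOP) tract, an unbroken run of C and T right at the cap, through which mTOR signalling turns their translation up or down together, and MYC raises the transcription of many of them. In droplet single-cell data the share of UMIs they take is often followed as a readout of cell state, since lymphocytes spend a large part of their mRNA on these genes and granulocytes a small part.

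Single-cell 3′ libraries of unselected live cells came from 13 mice, labelled C57BL/6N, at the time of euthanasia, in 5 groups. There were 5 spleens of Eµ-PRMT5 mice, which carry human PRMT5, 4 spleens of Eµ-TCL1 mice, which carry human TCL1 and are a model of chronic lymphocytic leukemia, and 4 spleens of Eµ-PRMT5/TCL1 mice, which carry both. Lymph nodes, described as sub-mandibular, came from 3 of the Eµ-TCL1 mice and from all 4 Eµ-PRMT5/TCL1 mice. Each transgene is driven by an immunoglobulin heavy chain promoter and enhancer and so is meant for B cells, no group lacks a transgene, and the ages are not given in the labels. The Eµ-PRMT5/TCL1 mice came from crosses of Eµ-PRMT5 with homozygous Eµ-TCL1 mice, whose background the methods give as C57BL/6 J. Each library is a separate tissue sample, but 7 of the 13 mice gave both a spleen and a lymph node. Between genotypes, p-values measure the spread between samples of different mice. For classes and tissues compared within mice, they measure the spread of the differences within mice.

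The libraries held 9348094 to 72440894 UMIs. After calling cells and removing 3543 likely doublets, 84246 cells were left, 688 to 7633 per library, with a median of 3550 to 14285 UMIs per cell. No 2 of the 20 libraries shared more than 68 cell barcodes, at most 1.31% of the smaller library. Cells were clustered without the ribosomal protein genes, and clusters were named from marker genes as B-like (39251 cells), T-like (30164), monocyte/macrophage-like (3776), neutrophil-like (2919) or plasma-like (1733), while 4 clusters with 5509 cells stayed unnamed. A library entered a class with at least 30 cells. Spleen 4 of the Eµ-PRMT5/TCL1 mice stood apart from the other libraries in its ribosomal protein UMIs in every class, as described further on, and the main results that include it are given with and without it.

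The annotated start sites of 60 of the 80 members were found in RefSeq's promoter table (GRCm38.p6). On the gene's own strand, the 30 bases around that start, 15 on either side, were searched for the longest run made only of C and T. A run of at least 7 was present in 33 of the 60 members (55%), in 7 of 13 other translation genes known to carry a TOP tract (53.8%), in 11 of 69 mitochondrial ribosomal protein genes (15.9%) and in 21.3% of all 27025 genes in the table. The median run was 7 bases in the members and 5 over all genes. The sequences of members that the results turn on are printed 5′ to 3′ with this longest run in capitals. The first base of the annotated transcript is base 16, and a run that does not reach it can mean that the annotated start is not the one these cells use.
Rps27: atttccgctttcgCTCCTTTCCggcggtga
Rps21: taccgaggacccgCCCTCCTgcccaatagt
Rpl12: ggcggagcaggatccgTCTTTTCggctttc
Rpl13a: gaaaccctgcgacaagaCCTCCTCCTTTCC
Rpl13: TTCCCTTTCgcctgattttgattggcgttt
Rpl4: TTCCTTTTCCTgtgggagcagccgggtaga
Rplp0: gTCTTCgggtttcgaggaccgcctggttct
Rps28: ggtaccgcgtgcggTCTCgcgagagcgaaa

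These windows lie at chr3:90213634-90213663 (minus strand) for Rps27, chr2:180257364-180257393 (plus) for Rps21, chr2:32961697-32961726 (plus) for Rpl12, chr7:45128731-45128760 (minus) for Rpl13a, chr8:123102335-123102364 (plus) for Rpl13, chr9:64173372-64173401 (plus) for Rpl4, chr5:115559452-115559481 (plus) for Rplp0 and chr17:33824548-33824577 (minus) for Rps28. The run of Rps27 was 9 bases long and spanned the annotated start, and so did the 7-base run of Rps21. The run of Rpl12 began at base 2 of the annotated transcript, and the 13-base run of Rpl13a at base 3. The runs of Rpl13 (9 bases) and Rpl4 (11 bases) lay upstream of the annotated start. Rplp0 and Rps28 held runs of only 5 and 4 bases in this window.

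The ribosomal protein share of a cell class, meaning the members' UMIs as a percentage of all UMIs of that class in a library, differed severalfold between classes. Over the spleens the share was 30.2% ± 6.74 (SD, n = 12) in T-like cells, 25.1% ± 5.28 (n = 13) in B-like cells, 18.5% ± 3.71 (n = 13) in monocyte/macrophage-like cells, 11.6% ± 5.25 (n = 6) in plasma-like cells and 6.07% ± 1.605 (n = 11) in neutrophil-like cells. Within a mouse the order was almost fixed. T-like cells stood above B-like cells in 11 of 12 spleens, B-like above monocyte/macrophage-like cells in 13 of 13, and monocyte/macrophage-like above neutrophil-like cells in 11 of 11.

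These differences were tested within mice by exact two-sided sign-flip permutation tests over the 10 pairs of classes, with Benjamini-Hochberg adjustment. B-like cells were below T-like cells by 5.70 percentage points (SD of the difference 4.69, n = 12, permutation adjusted p = 0.00570). They were above monocyte/macrophage-like cells by 6.60 points (SD 3.603, n = 13, permutation adjusted p = 0.00244) and above neutrophil-like cells by 19.4 points (SD 4.34, n = 11, permutation adjusted p = 0.00244). Without Eµ-PRMT5/TCL1 spleen 4 these 3 differences were -6.19, 6.69 and 20.4 points, and all 3 stayed past the threshold.

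Plasma-like cells, the antibody-secreting stage of the B lineage, reached 30 cells in 6 spleens. Their share was 8.34%, 9.21% and 17.3% in Eµ-PRMT5 spleens 1, 3 and 5, 18.7% and 10.3% for spleens 1 and 3 of Eµ-TCL1, and 5.55% for spleen 4 of Eµ-PRMT5/TCL1. B-like cells of the same spleen were higher in 6 of 6, by 11.4 points (SD 5.42, exact permutation adjusted p = 0.0347), as were T-like cells, by 16.05 points (SD 8.69, same adjusted p). These differences depended on the cells and UMIs counted. Immunoglobulin transcripts made up 20.3 to 53.8% of all UMIs in the plasma-like cells of these spleens. With immunoglobulin UMIs taken out of the denominator, the B-like excess was 5.00 points (exact permutation adjusted p = 0.0446) and the T-like excess 9.14 points, which no longer passed (adjusted p = 0.0694). The difference between plasma-like and monocyte/macrophage-like cells changed, with the same UMIs taken out, from -5.82 points (exact permutation adjusted p = 0.0347) to 1.11 points (adjusted p = 0.375). Without cells above the 95th percentile of UMIs of their library only 2 spleens, Eµ-TCL1 spleen 1 and Eµ-PRMT5/TCL1 spleen 4, kept 30 plasma-like cells. No exact test can then go below p = 0.5, and the B-like and T-like excesses over these 2 spleens were 7.15 and 5.82 points and the difference between plasma-like and monocyte/macrophage-like cells -0.096 points. In the full set of cells with 5 spleens left, no exact test can go below p = 0.0625, so each plasma-like result loses its call when any 1 of the 6 mice is left out.

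**Figure D1:**
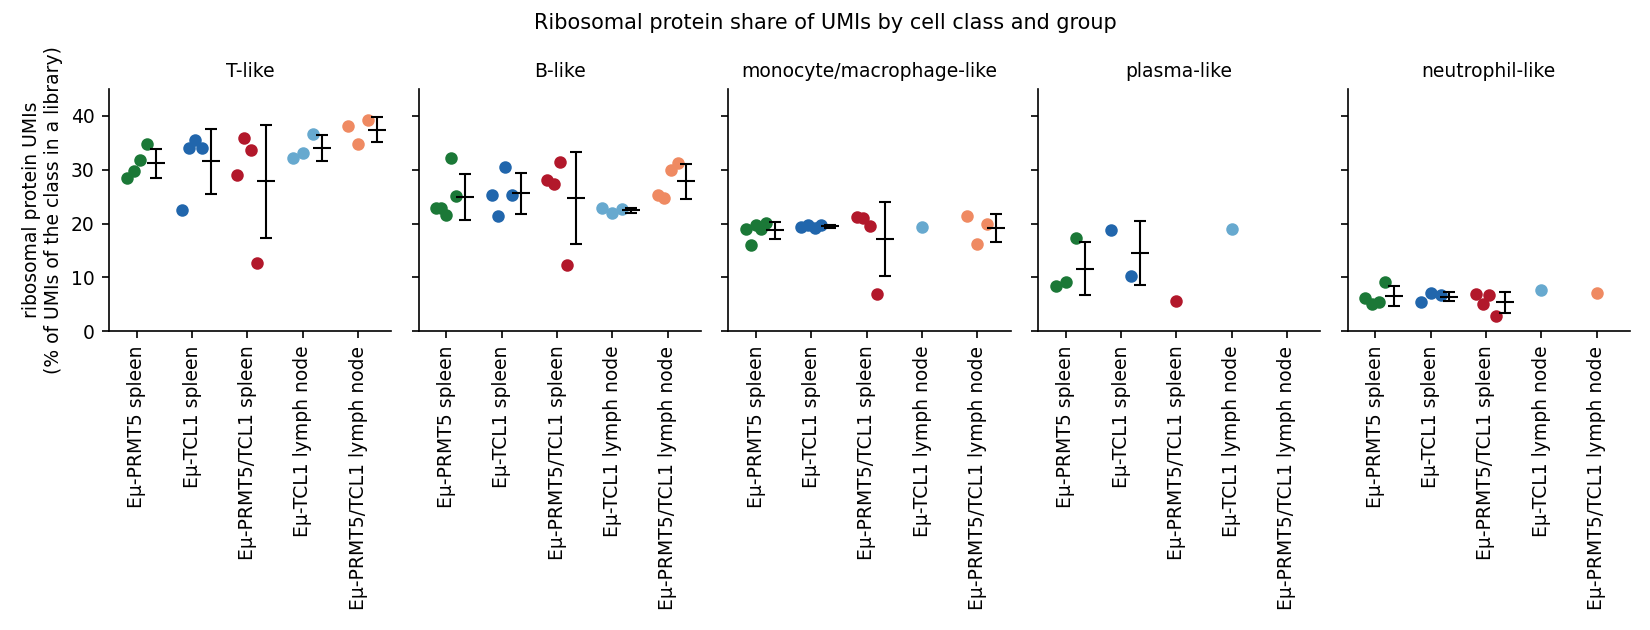
Each point is the ribosomal protein share of UMIs (vertical axis, percent) of a cell class in 1 library, by group along the horizontal axis, with green for Eµ-PRMT5, blue for Eµ-TCL1 and red for Eµ-PRMT5/TCL1 spleens and light blue and orange for the lymph nodes, and black bars give mean ± SD. The T-like points are mostly above 30% and the neutrophil-like points below 10%, and the lowest red point in the T-like, B-like, monocyte/macrophage-like and neutrophil-like panels is Eµ-PRMT5/TCL1 spleen 4.

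Member by member, 77 of the 80 genes had enough counts to be tested (edgeR quasi-likelihood test on UMIs summed by spleen and class, with the mouse as a block and all genes in the fit). Against T-like cells, 43 of the 77 were lower in B-like cells and 2 were higher, where 28.3% of the 10482 genes tested were lower and 29.4% were higher. The count depended on which cells were called T-like. One unnamed cluster of 2662 cells (led by Gzmk, Gzmb and Esm1, 20.9% ribosomal protein UMIs) had 10 T cell markers. With that cluster alone added to the T-like class, 21 members were lower and 5 higher, where 27.6% of all genes were lower and 30.2% higher, and the median of the members was -0.15. The difference in share was then -3.83 points (exact permutation adjusted p = 0.0385). The median change of the members was -0.28 on the log2 scale and that of all genes 0.01. Rpl12, which holds the base of the stalk that recruits elongation factors, had 548 to 2230 CPM (UMIs scaled to equal library totals) in B-like cells (median 1700.0, n = 13) and 818 to 3716 in T-like cells (median 2883, n = 12). The ranges overlapped, but within mice the gene was lower in B-like cells (log2 change -0.70, SE 0.11, edgeR adjusted p = 1.2e-04). Rps23, a protein of the decoding centre, had a B-like median of 2672 CPM and a T-like median of 4580 CPM and was likewise lower (log2 change -0.70, SE 0.10, edgeR adjusted p = 2.7e-05). Rps21, Rps16, Rplp1, Rpl23a and Rplp2 followed with log2 changes of -0.63, -0.63, -0.62, -0.60 and -0.60, and Rplp1 and Rplp2 are the acidic proteins of the same stalk.

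The changes in the other direction were small. Rps25, a small subunit protein used in translation from internal entry sites, was higher in B-like cells by a log2 change of 0.20 (SE 0.08, edgeR adjusted p = 0.042). Rps13 was the called member with the smallest fall, at -0.22. Both calls were fragile. With 1 mouse left out, Rps25 lost its call in 8 of 12 fits (log2 change 0.15 to 0.23) and Rps13 in 9 of 12 (-0.27 to -0.19), among them those without Eµ-TCL1 spleens 3 and 4 or Eµ-PRMT5/TCL1 spleen 4 for both genes. Among genes outside the rule, 78 mitochondrial ribosomal protein genes were split the other way, with 40 higher and 10 lower in B-like cells, and of 20 other TOP genes 3 were higher and 7 lower.

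Against monocyte/macrophage-like cells, 67 of the 77 members were higher in B-like cells and 1 was lower, where 33% of 10497 genes were higher and 29.8% lower, 62.8% in all (member median 0.45, all genes 0.06, log2). Rps27, a zinc-finger protein of the small subunit, ranged from 719 to 6150 CPM in B-like cells (median 3437, n = 13) and from 298 to 2716 in monocyte/macrophage-like cells (median 1379, n = 13). Its log2 change was 1.37 (SE 0.12, edgeR adjusted p = 5.3e-08), the highest of the members. Rpl8, Rpl12, Rpl30 and Rpl13a followed with log2 changes of 0.97, 0.95, 0.90 and 0.88. Rpl13a is also part of a complex that silences inflammatory mRNAs in monocytes. Rpl23a and Rps25, both at 0.24, had the lowest log2 changes of the members that were higher. The member that was lower was Rps27l, the p53-inducible paralog of Rps27, with a median of 245 CPM in B-like cells and 354 CPM in monocyte/macrophage-like cells (log2 change -0.50, SE 0.11, edgeR adjusted p = 7.8e-04). Of the lists, 12 of 20 other TOP genes were higher and 1 lower, and 18 of 78 mitochondrial ribosomal protein genes were higher and 13 lower.

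The monocyte/macrophage-like class was a single cluster of 3776 cells, and 1329 of them fell, at the finer clustering resolution of 2, into a cluster led by Mpo, Ctsg, Prtn3, Cd34 and Elane. Mpo, Ctsg, Prtn3 and Elane encode granule proteins made by early myeloid cells, and none of the fixed monocyte/macrophage markers was among the 10 leading genes of that cluster, although 8 of them were detected in it. These cells were 9.62 to 59.0% of the class by spleen. With them left out, which was chosen after the leading genes were seen, the share of the class was 16.5% ± 3.52 (n = 12) and B-like cells were above it by 8.36 points (exact permutation adjusted p = 0.00326). Of the members 70 were then higher in B-like cells and 1 lower, where 35.3% of all genes were higher and 27.8% lower.

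Against neutrophil-like cells, all 77 tested members were higher in B-like cells, where 38.6% of 9822 genes were higher and 33.9% lower. The member median was 1.34 and that of all genes 0.12 on the log2 scale. Rpl12 changed most, from 45.5 to 308 CPM in neutrophil-like cells (median 229, n = 11) against 548 to 2230 CPM in B-like cells, with no overlap (log2 change 2.48, SE 0.10, edgeR adjusted p = 1.1e-11). Rplp1 followed at 2.25, and Rps18, Rps27 and Rpl13a came next at 2.04, 2.02 and 1.97. Rpl5 and Rps23 were at 1.76 and 1.54. Rpl5 forms with Rpl11 and 5S rRNA the particle that can bind Mdm2. The smallest changes were those of Rps27a, which is made as a fusion to ubiquitin (0.51, SE 0.09), Rpl9 (0.53) and Rps9 (0.58). Rps27a had 425 to 2172 CPM in neutrophil-like cells (median 1656) and 1135 to 5019 in B-like cells (median 3812). Without TMM factors the median of all genes moved to 0.88 and that of the members stayed 1.22 above it. Of 20 other TOP genes 17 were higher and 0 lower, and of 78 mitochondrial ribosomal protein genes 52 were higher and 8 lower. The share of members among UMIs in cell-free droplets was 14.5 to 34.3%, above the share in neutrophil-like cells in every spleen, and its part in the neutrophil-like values was not tested.

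Against plasma-like cells, 3 members were higher and 3 lower in B-like cells, where 18.6% of 10052 genes were higher and 18.8% lower, so that 6 of 77 members and 37.5% of all genes were called. Rps27 was higher (log2 change 0.73, SE 0.20, edgeR adjusted p = 0.011), with a plasma-like median of 961 CPM (n = 6), and so were Rpl12 (0.59) and Rps12 (0.55). With 1 mouse left out Rps27 kept its call in 6 of 6 fits, but Rpl12 lost it in 3 of 6 (those without spleen 1 of Eµ-PRMT5, 3 of Eµ-TCL1 and 4 of Eµ-PRMT5/TCL1, log2 change 0.42 to 0.69 over the 6) and Rps12 in 4 of 6 (those without spleens 1 and 5 of Eµ-PRMT5, 1 of Eµ-TCL1 and 4 of Eµ-PRMT5/TCL1, 0.38 to 0.63). Rps27l was lower by the log2 change of -1.19 (SE 0.18, adjusted p = 2.3e-04), and with it Rpl10 (-0.97), a protein that joins the 60S subunit at the end of its assembly, and Rpl41 (-0.77), the smallest ribosomal protein. Rps27l thus had the lowest B-like level relative to both plasma-like and monocyte/macrophage-like cells, while Rps27 had the highest. The fit scales libraries by TMM factors. Without these factors, so that immunoglobulin UMIs count in full, 74 members were higher and 1 lower, where 60.4% of all genes were higher and 7.74% lower, and the median of all genes moved from 0.07 to 0.80 on the log2 scale. Relative to the median of all genes, that of the members was 0.09 with the factors and 0.08 without. By DESeq2, 7 members were higher and 3 lower, where it called 19.1% of all genes higher and 20% lower. Of the 20 other TOP genes 4 were higher and 1 lower, and of the 78 mitochondrial ribosomal protein genes 7 were higher and 15 lower. Without Eµ-PRMT5/TCL1 spleen 4, the members called in B-like cells were 44 against T-like, 66 against monocyte/macrophage-like, 77 against neutrophil-like and 4 against plasma-like cells, where 55.6%, 59.8%, 71.7% and 27.6% of all genes were called.

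The B-like class was not the same population in each group. It consisted of 15 clusters with ribosomal protein shares of 16.4 to 32.3%, and several were almost entirely 1 library. The lowest share belonged to cluster 14 (3459 cells, led by Igkv10-94), of which 83.3% were from Eµ-PRMT5/TCL1 spleen 4. The highest belonged to cluster 21 (1059 cells, led by Ighv10-3), of which 99.8% were from Eµ-TCL1 spleen 3, and next to it stood cluster 32 at 32.2%, nearly all from Eµ-PRMT5 spleen 4. The 8 T-like clusters ranged from 18.3 to 37.3%. The lowest was cluster 5 (1851 cells, led by the T cell receptor genes Trbv17 and Trav4-3), of which 69.3% were from Eµ-TCL1 spleen 1.

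The group comparisons asked whether the transgene changed the share in the spleen. In B-like cells the share was 24.9% ± 4.26 (n = 5) for Eµ-PRMT5, 25.6% ± 3.77 (n = 4) for Eµ-TCL1 and 24.8% ± 8.51 (n = 4) for Eµ-PRMT5/TCL1. By spleen, the Eµ-PRMT5 values were 22.9%, 22.9%, 21.6%, 32.2% and 25.1%, the Eµ-TCL1 values 25.4%, 21.3%, 30.5% and 25.3%, and the Eµ-PRMT5/TCL1 values 28.0%, 27.3%, 31.4% and 12.3%. All 3 groups overlapped. The differences were -0.68 points (Eµ-PRMT5 minus Eµ-TCL1), -0.85 points (Eµ-PRMT5/TCL1 minus Eµ-TCL1) and -0.17 points (Eµ-PRMT5/TCL1 minus Eµ-PRMT5), and each had an adjusted p of 0.984 in exact two-sided permutation tests, adjusted over the 10 tests of shares between groups and tissues. Without Eµ-PRMT5/TCL1 spleen 4, the 2 differences that include it became 3.31 and 3.99 points (exact permutation adjusted p = 0.571 and 0.5).

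In T-like cells, for which the transgenes' promoter is not meant, the share was 31.2% ± 2.69 (n = 4), 31.6% ± 6.06 (n = 4) and 27.8% ± 10.5 (n = 4) in the same order of groups. The differences of -0.34, -3.74 and -3.40 points did not pass the exact permutation test (adjusted p = 0.984 each). Without Eµ-PRMT5/TCL1 spleen 4 the last 2 were 1.34 and 1.68 points. The lowest Eµ-TCL1 value was 22.5% in spleen 1, where the other 3 were between 34.1 and 35.5%.

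No member passed edgeR's test (adjusted p below 0.05) in any of the 3 spleen comparisons, in B-like or T-like cells. None had an unadjusted p below 0.05 and none was called by DESeq2 either, which called 6.05%, 0.351% and 1.47% of all genes in B-like cells and 0.697%, 0.838% and 2.21% in T-like cells, in the order Eµ-PRMT5 against Eµ-TCL1, Eµ-PRMT5/TCL1 against Eµ-TCL1 and Eµ-PRMT5/TCL1 against Eµ-PRMT5. Over all genes the percentage called by edgeR was 0.0167% (2 of 11964) for Eµ-PRMT5 against Eµ-TCL1 in B-like cells and 0% in the others. An unadjusted p below 0.05 was found for 18.4%, 5.4% and 9.89% of genes in B-like cells, in the same order, and for 9.63%, 9.38% and 11.2% in T-like cells. The member medians were -0.03, -0.05 and -0.06 in B-like cells on the log2 scale, and their quartiles lay within -0.19 to 0.18. These medians depended on the fit. With sex, read from Xist, as a covariate they were -0.33, -0.50 and -0.15, with 0 members called. How the sexes were spread over the groups is not given here. Without Eµ-PRMT5/TCL1 spleen 4 the last 2 were 0.20 and 0.22, with 0 members and 0% of genes called. In T-like cells those 2 medians were -0.14 and -0.13 with that spleen and 0.15 and 0.13 without it. For B-like cells without TMM factors the median of all genes was 0.10 in both comparisons against Eµ-TCL1, and the members lay at -0.10 and -0.11 relative to it.

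When Eµ-PRMT5 was set against Eµ-TCL1 in the spleen, the members with the lowest unadjusted p were Rps29 and Rps28, small subunit proteins encoded by very short reading frames. In B-like cells Rps28 had 2318, 4997, 1691, 2378 and 2063 CPM in the Eµ-PRMT5 spleens against 1997, 1411, 1783 and 1182 CPM in the Eµ-TCL1 spleens (log2 change 0.65, SE 0.46, edgeR adjusted p = 0.477). Rps29 had 3417, 4581, 2502, 3177 and 2599 CPM against 2815, 1933, 1785 and 1325 CPM (log2 change 0.64, SE 0.43, edgeR adjusted p = 0.445). With 1 library left out the log2 change ran from 0.39 to 0.80 for Rps28 and from 0.48 to 0.88 for Rps29. Spleen 2 of Eµ-PRMT5 was the highest for both and spleen 4 of Eµ-TCL1 the lowest, and the groups overlapped. Shares of member UMIs, relative to other libraries, also varied with coding length. In B-like cells their rank correlation with length was -0.325, -0.518, 0.001, 0.050 and -0.126 in Eµ-PRMT5 spleens 1 to 5. It was -0.136, 0.300, 0.228 and 0.704 in Eµ-TCL1 spleens 1 to 4. The part of length in the changes of Rps28 and Rps29 was not tested. The T-like cells of the same spleens gave log2 changes of 0.71 for Rps28 and 0.67 for Rps29 (adjusted p = 0.635 and 0.643), and there the Rps28 values did not overlap, at 3039, 4890, 2776 and 3049 CPM in Eµ-PRMT5 spleens 1, 2, 3 and 5 against 1812, 2719, 2025 and 1673 CPM in the Eµ-TCL1 spleens. In T-like cells 4 of 77 members lay above in every library without overlap and 0 below, where 4.29% of all genes lay above and 2.05% below. For Eµ-PRMT5/TCL1 against Eµ-TCL1 spleens, the B-like members with the lowest unadjusted p were Rpl4 (0.36) and Rpl5 (0.29). Against Eµ-PRMT5 spleens they were Rpl3 (0.51) and Rps27l (-0.59). In T-like cells Rpl8 (-0.41) was among them against Eµ-TCL1, and Rpl17 (-0.62) and Rps27 (-0.59) were those against Eµ-PRMT5. All of these are log2 changes with adjusted p above 0.05. Their size depended on single libraries. They were, once Eµ-PRMT5/TCL1 spleen 4 was left out, 0.26 for Rpl4, 0.43 for Rpl5, 0.38 for Rpl3, -0.24 for Rps27l, -0.24 for Rpl8, -0.31 for Rpl17 and -0.27 for Rps27. Without Eµ-PRMT5 spleen 4 Rps27l was at -0.06, and without Eµ-PRMT5/TCL1 spleen 2 Rpl5 was at 0.15.

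In the lymph nodes the B-like share was higher in Eµ-PRMT5/TCL1 than in Eµ-TCL1 mice without overlap. It was 25.4%, 24.8%, 29.9% and 31.3% in the 4 Eµ-PRMT5/TCL1 nodes (27.8% ± 3.25) and 22.8%, 21.97% and 22.7% in the 3 Eµ-TCL1 nodes (22.5% ± 0.451). The difference was 5.36 points, with an exact permutation p of 0.0571, the smallest that 4 against 3 libraries can give, and an adjusted p of 0.3125. Leaving out each library in turn gave 4.2 to 6.39 points. The UMIs per cell and the immunoglobulin share overlapped between the genotypes, and their part in the difference was not tested. The median UMIs per B-like cell were 12527, 4924, 5671 and 4702 against 8987, 7999 and 8676, and immunoglobulin genes took 0.957 to 2.01% of UMIs against 1.91 to 9.51%. With immunoglobulin UMIs out of the denominator the difference was 4.53 points. The clusters were different ones, mainly 24, 14, 15 and 31 in the Eµ-PRMT5/TCL1 nodes and 7, 10 and 27 in the Eµ-TCL1 nodes.

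All 77 members had a log2 change above 0 in this lymph node comparison in B-like cells, where 50.6% of all genes did. Their median was 0.39 and that of all genes 0.01. The members were spread narrowly, with quartiles of 0.31 and 0.47. None passed edgeR's adjusted test, in which 0% of 10974 genes were called, and none passed DESeq2, which called 0.756% of genes. An unadjusted p below 0.05 with a higher level was found for 18 of 77 members, where 3.17% of all genes had one. In CPM, 35 members were above in every library without overlap and 0 below, where 2.12% of genes were above and 4.29% below. Rpl39, which lines the tunnel through which the new protein leaves, had 5279, 3403, 5417 and 4068 CPM in the Eµ-PRMT5/TCL1 nodes and 3486, 2761 and 2336 CPM in the Eµ-TCL1 nodes (log2 change 0.76, SE 0.23, edgeR adjusted p = 0.622). Its groups overlapped at Eµ-PRMT5/TCL1 node 2. Rps21 had 3102, 1940, 2958 and 2569 against 1913, 1818 and 1311 CPM without overlap (log2 change 0.75, SE 0.22, edgeR adjusted p = 0.622). Rpl39 and Rps21 are short, and shares of member UMIs, relative to other libraries, varied with coding length. In B-like cells their rank correlation with length was -0.37, 0.29, -0.59 and 0.02 in Eµ-PRMT5/TCL1 nodes 1 to 4. It was -0.24, 0.18 and 0.55 in Eµ-TCL1 nodes 1 to 3. The part of length in these changes was not tested. The lowest log2 change was that of Rpl10, 0.01. Of 20 other TOP genes 19 were above 0 (median 0.30), and of 78 mitochondrial ribosomal protein genes 51 were (median 0.10).

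T-like cells of the same nodes showed a like pattern, with 77 of 77 members above 0 (48.5% of all genes) and a median log2 change of 0.40 (all genes -0.02). Their share was 38.1%, 34.9% and 39.3% in Eµ-PRMT5/TCL1 nodes 2, 3 and 4, while node 1 had too few T-like cells, and 32.1%, 33.1% and 36.7% in the Eµ-TCL1 nodes. The difference of 3.45 points did not pass (exact permutation p = 0.2, adjusted 0.667, where 3 against 3 cannot go below 0.1). Rpl37a had 5312, 5928 and 5552 CPM against 4523, 4196 and 4311 CPM without overlap (log2 change 0.60, SE 0.14, edgeR adjusted p = 0.101). Rpl41 had 1438, 1575 and 1555 against 1271, 1193 and 1164 CPM (0.57, SE 0.14, adjusted p = 0.102). An unadjusted p below 0.05 with a higher level was found for 39 of 77 members, where 9.75% of all genes had one. In CPM, 21 members lay above in every library, where 4.34% of genes did, and 0 lay below, where 24.9% of genes did. No member passed edgeR's adjusted test, in which 0.0191% of genes were called, and 10 passed DESeq2, which called 5.24% of genes.

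The count of T-like members called turned on 1 library, and the difference in share on which cells were counted. Without Eµ-TCL1 lymph node 3, edgeR called 64 of the 77 members higher, where 11.3% of 10854 genes were called higher, and with any other node left out it called 0. The T-like cells of the 2 genotypes also lay in different clusters. Cluster 8 (led by Klk8, Gzmm and Sidt1, 37.3% ribosomal protein UMIs) held 77.1% of the T-like cells in Eµ-PRMT5/TCL1 nodes and 30.98% in Eµ-TCL1 nodes. Cluster 0 (led by Rflnb and Ifitm10, 35.2%) held 1.14% and 47.8%. When the unnamed cluster with T cell markers was added to the T-like class, the difference in share became -0.80 points and the member median 0.13. Without TMM factors the median of all genes was -0.27, and that of the members was 0.43 above it, against 0.42 with the factors.

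Lymph node and spleen of the same mouse were compared in 7 mice for B-like and 6 for T-like cells. The B-like share was higher in the node in 3 of 7 mice, with a mean difference of 1.11 points (SD 5.85, exact sign-flip permutation p = 0.797, adjusted 0.984). The largest difference was 13.1 points, in the mouse of Eµ-PRMT5/TCL1 spleen 4 (12.3%) and lymph node 1 (25.4%), and without that mouse the mean was -0.89 points. The T-like share was higher in the node in 5 of 6 mice, by 4.14 points (SD 4.28, exact permutation p = 0.0625, adjusted 0.3125), from 31.6% ± 4.97 in the spleen to 35.7% ± 2.83 in the node. T-like clusters differed between tissues. Over all libraries of a group, cluster 8 held 26.5% in Eµ-PRMT5/TCL1 spleens and 77.1% in nodes, and 18.4% and 30.98% in Eµ-TCL1. Cluster 5, with the lowest share, held 16.95% in Eµ-TCL1 spleens and 4.93% in nodes, and 0.113% and 1.16% in Eµ-PRMT5/TCL1. The part of this was not tested. The difference between tissues was larger in Eµ-PRMT5/TCL1 than in Eµ-TCL1 mice by 4.58 points in B-like cells (exact permutation p = 0.4). In T-like cells it was larger by 0.79 points (exact permutation p = 0.8). With 4 against 3 and 3 against 3 mice these tests cannot go below 0.0571 and 0.1, so they cannot decide whether the genotypes differ. The B-like value includes the mouse with the difference of 13.1 points.

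In these tissue comparisons no member passed edgeR's adjusted test, where 0.0179% of genes were called in B-like and 0.0395% in T-like cells. By DESeq2, 0 and 2 members passed, and 2.76% and 1.73% of genes. In T-like cells 72 of 77 members were above 0 (47.5% of all genes), the median log2 change was 0.28 (all genes -0.02), and 28 members had an unadjusted p below 0.05, where 14.9% of all genes did. Rpl13a had 3737, 3458, 3515, 3548, 3292 and 3601 CPM in the T-like cells of the nodes and 2187, 2481, 2871, 2221, 2866 and 2546 CPM in those of the spleens of the 6 mice, without overlap (log2 change 0.60, SE 0.12, edgeR adjusted p = 0.162). Rps27 was next, at 0.58 (SE 0.16, adjusted p = 0.209). Rpl41 went the other way at -0.43, the lowest of the members. In B-like cells the median was 0.19 with 65 of 77 above 0 (53.2% of all genes). No B-like member had an unadjusted p below 0.05, where 11.5% of all genes did. The lowest unadjusted p-values there were those of Rpl10 (-0.33) and Rpl13a (0.55). With 1 mouse left out these ran from -0.43 to -0.25 and from 0.29 to 0.64. The B-like values include the mouse of Eµ-PRMT5/TCL1 spleen 4, without which the difference in share was -0.89 points. The B-like median and count above 0 are not given here without that mouse.

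**Figure D2:**
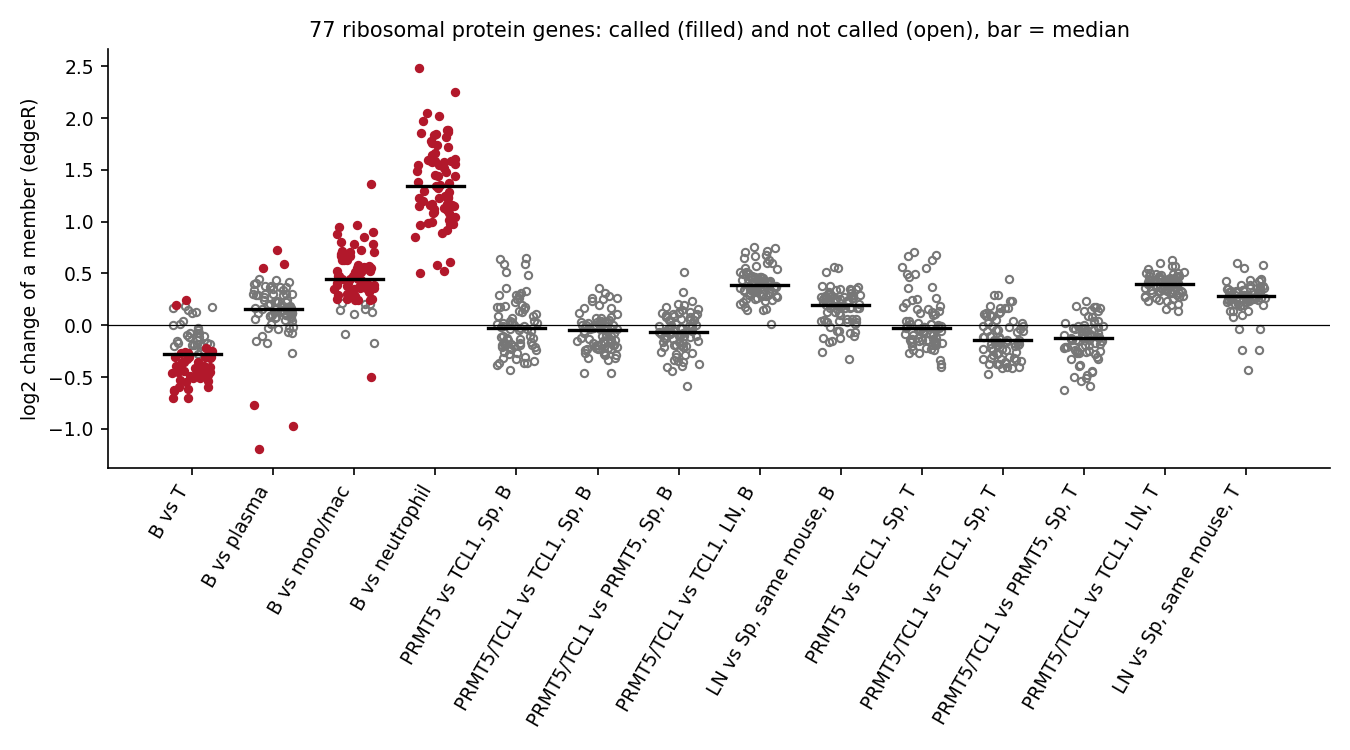
Each point is the log2 change of 1 of the 77 tested members (vertical axis) in a comparison named along the horizontal axis (Sp, spleen, LN, lymph node, mono/mac, monocyte/macrophage-like), filled where edgeR's adjusted p was below 0.05 and open otherwise, with a black bar at the median. The medians stand at 1.34 for B-like against neutrophil-like cells and -0.28 against T-like cells, near 0 in the spleen comparisons of genotypes, and at 0.39 and 0.40 in the lymph node comparisons, where no point is filled.

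The share also moved with the number of UMIs per cell. Cells of each class and spleen were ordered by their total UMIs and divided into quintiles. From the lowest to the highest quintile the share rose from 15.7% ± 3.34 to 20.7% ± 4.35 in monocyte/macrophage-like cells (higher in 11 of 11 spleens, difference 5.05 points, exact permutation adjusted p = 0.00488) and from 3.102% ± 1.31 to 8.05% ± 2.16 in neutrophil-like cells (9 of 9 spleens, 4.95 points, adjusted p = 0.00936, exact permutation). In B-like cells it rose from 22.7% ± 5.23 to 25.97% ± 5.38 (11 of 13 spleens, 3.25 points, exact permutation adjusted p = 0.00936). In T-like cells the difference was 2.51 points (8 of 12 spleens, permutation adjusted p = 0.216) and in plasma-like cells 0.71 points (3 of 4 spleens, adjusted p = 0.375, exact permutation), and neither passed. With Eµ-PRMT5/TCL1 spleen 4 left out the differences were 5.38 points in monocyte/macrophage-like, 5.27 in neutrophil-like and 3.32 in B-like cells, which stayed past the threshold, and 3.46 in T-like cells and 0.43 in plasma-like cells, which did not pass (exact permutation adjusted p = 0.0671 and 0.75).

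Both myeloid classes held clusters with different UMIs per cell and different shares. At resolution 2 the clusters given the monocyte/macrophage name were the one led by Mpo (1378 cells, median UMIs 2.59 times that of their library, 21.6% ribosomal protein UMIs), one led by Clec4n and Clec4a1 (1594 cells, 1.49 times, 16.9%) and one led by Saa3 and C1qb (859 cells, 0.63 times, 17.4%), of which 92.9% were from Eµ-PRMT5 spleen 4. The Mpo-led cluster had both the most UMIs and the highest share, while the other two went opposite ways. With the Mpo-led cells left out, the monocyte/macrophage-like share still rose by 3.497 points (8 of 8 spleens with enough cells, exact permutation adjusted p = 0.0130). The neutrophil-like clusters were one led by Stfa1 and Fcnb, with the granule genes Camp and Ngp (933 cells, 1.48 times, 8.42%), and one led by Retnlg and Mmp9 (1989 cells, 0.87 times, 4.64%). The quintiles were not compared within the neutrophil-like clusters, so the part of these in the rise was not tested.

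The members' own UMIs are part of the total by which cells were ordered. Ordered instead by the UMIs of all other genes, the difference was 0.97 points in B-like cells, which no longer passed (exact permutation adjusted p = 0.351), -3.34 points in T-like and -1.07 points in plasma-like cells, while monocyte/macrophage-like and neutrophil-like cells kept their calls. At equal totals a cell with a higher share has fewer UMIs of other genes, so this order pulls the difference down. Neither order is independent of the share. Within spleens, the rank correlation of share and total UMIs over cells had a median of 0.26 in B-like cells (from -0.16 to 0.55), 0.21 in T-like cells (from -0.38 to 0.55), 0.47 in monocyte/macrophage-like cells and 0.62 in neutrophil-like cells. The 2 B-like spleens with a negative difference were Eµ-PRMT5 spleen 4 (-1.71 points) and Eµ-TCL1 spleen 1 (-2.96 points). Among T-like cells, Eµ-PRMT5/TCL1 spleen 4 had the largest fall, of -7.95 points, and Eµ-PRMT5 spleen 3 the largest rise, of 11.8 points.

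**Figure D3:**
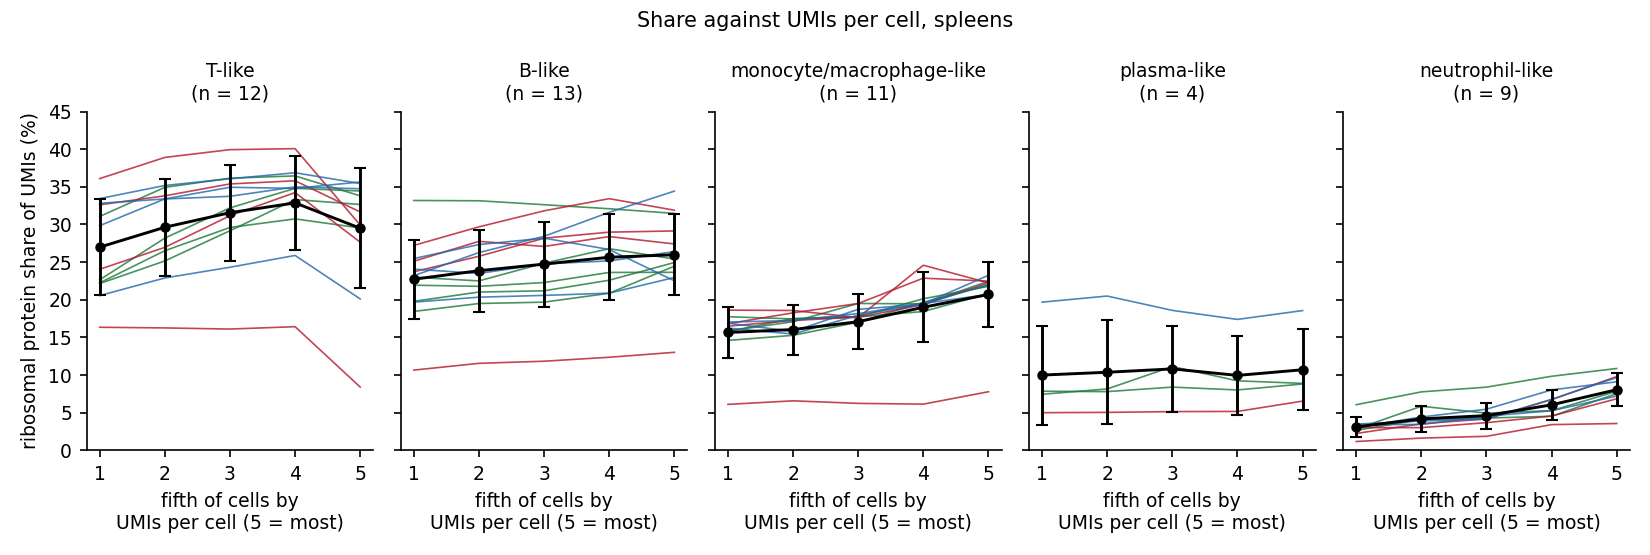
The ribosomal protein share of UMIs (vertical axis, percent) is drawn against the quintile of cells by UMIs per cell (horizontal axis, 5 with the most UMIs), with a thin line for each spleen (green Eµ-PRMT5, blue Eµ-TCL1, red Eµ-PRMT5/TCL1) and black points for the mean ± SD. Every line rises from the lowest to the highest quintile in monocyte/macrophage-like and neutrophil-like cells, whereas T-like lines go both ways.

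The members did not share this relation equally. As the mean over spleens of the log2 ratio of a member's level between the highest and the lowest quintile, 70 of 77 members were above 0 in B-like cells (median 0.19), 58 of 77 in T-like cells (0.08), 73 of 76 in monocyte/macrophage-like cells (0.37) and 11 of 12 with enough counts in neutrophil-like cells (1.502). These are descriptions of how the members varied, with no share of all genes beside them. The cells were ordered by total UMIs, of which the members' own are part, and the counts are given for that order only. Rps27 stood at the other end in B-like cells, at -0.43 ± 0.24 (SD, n = 13), with a lower level in the highest quintile in all 13 spleens, and in monocyte/macrophage-like cells at -0.43 ± 0.41, lower in all 11. It also had the lowest ratio in T-like cells (-0.31 ± 0.65, n = 12). Rps24 came next in B-like and T-like cells (-0.11 and -0.24). The members highest in B-like cells rich in UMIs were Rps18 (0.58 ± 0.35), Rpl41 (0.57 ± 0.16) and Rps2 (0.54 ± 0.24), each up in 13 of 13 spleens. Rps2, a protein at the mRNA entry, was also the highest in monocyte/macrophage-like cells (1.06 ± 0.13), and Rpsa, the small subunit protein also known as a laminin receptor, was the highest in neutrophil-like cells (2.65 ± 0.78, n = 9).

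As counted 3′ ends, the members with the most UMIs in B-like cells were Rpl13, Rpsa, Rplp0, Rps24 and Rps2. Rpl13 took 0.760% ± 0.172 (n = 20 libraries) of all B-like UMIs and 3.01% of the members' UMIs, and its level ranged from 4159 to 12160 CPM over the spleens. Rpsa, Rplp0, Rps24 and Rps2 took 0.684%, 0.664%, 0.651% and 0.610% of all UMIs. Rps3a1, outside the rule, took 0.524%. The fewest UMIs fell on Rpl10l, Rpl39l, Rpl3l, Rps27l and Rpl31. Rpl10l and Rpl39l, the testis paralogs of Rpl10 and Rpl39, had 0 and 9 UMIs over all B-like cells, and Rpl3l, the muscle paralog of Rpl3, had 93. A count of 0 allows a level of up to 0.00884 CPM in B-like cells (3 counts over all libraries, counting error only). Rps27l had 87456 UMIs in B-like cells against 1134196 for Rps27. Many ribosomal protein genes have near-identical processed pseudogenes, and reads that match both can be lost in counting, so levels of different members are not comparable beyond this order.

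Large and small subunit members kept nearly the same proportion. The ratio of large to small subunit UMIs was 1.15 ± 0.04 in B-like (n = 20), 1.11 ± 0.05 in T-like (n = 18), 1.15 ± 0.03 in monocyte/macrophage-like (n = 17), 1.09 ± 0.03 in neutrophil-like (n = 13) and 1.24 ± 0.07 in plasma-like cells (n = 7). Its full range over all B-like libraries was 1.08 to 1.25, while the share itself ranged from 12.3 to 32.2%.

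Within the members' UMIs, the genes that varied most over the 13 spleens in B-like cells were Rps27, Rpl3, Rpl4, Rps28 and Rpl38, with SDs of 0.64, 0.64, 0.57, 0.56 and 0.53 of the log2 share of member UMIs. Rpl3 and Rpl4 are core proteins of the large subunit, and Rpl38 is known from mice with skeletal defects in which translation of Hox mRNAs is lost. The spread of Rpl3 and Rpl4 was that of 1 library. Rpl3 took 5.27% of member UMIs in Eµ-PRMT5/TCL1 spleen 4 and 0.907 to 1.45% in the other 12 spleens, and without that spleen its SD was 0.22 and its rank 27. Rpl4 took 2.27% there and 0.449 to 0.678% elsewhere (SD 0.16 without it, rank 49).

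The spread of Rps27, Rps28 and Rpl38 remained without that spleen, at 0.55, 0.55 and 0.52, followed by Rps29 at 0.51 and Rps21 at 0.42. All 5 were highest in Eµ-PRMT5 spleen 2, and Rps28, Rpl38, Rps29 and Rps21 were lowest in Eµ-TCL1 spleen 4. Rps28 took 0.468 to 2.18% of member UMIs over these 12 spleens and Rps27 0.806 to 2.68%, lowest in Eµ-PRMT5 spleen 4. These members all have coding sequences of 168 to 252 bases. The steadiest member over these 12 spleens was Rps27a, with an SD of 0.06.

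**Figure D4:**
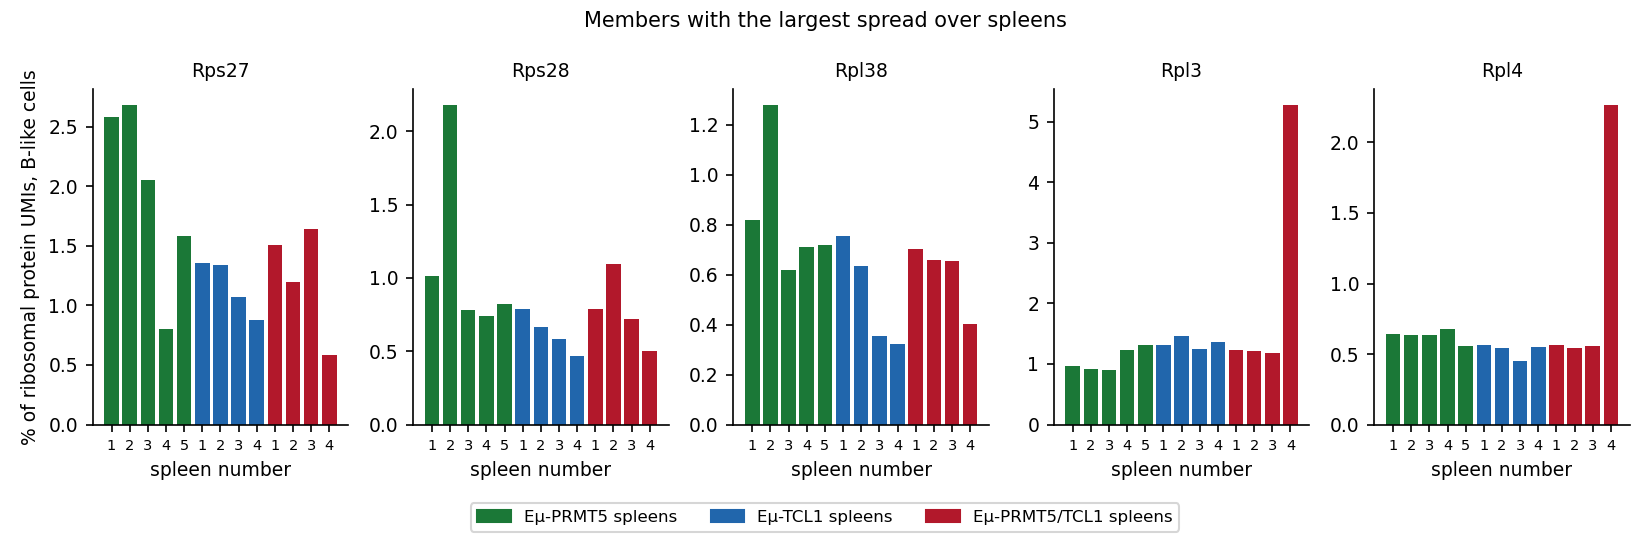
Bars give the percentage of ribosomal protein UMIs (vertical axis, from 0, with its own scale in each panel) that a member took in the B-like cells of each spleen (horizontal axis, spleen number within group, green Eµ-PRMT5, blue Eµ-TCL1, red Eµ-PRMT5/TCL1). Rpl3 and Rpl4 have a single tall bar, Eµ-PRMT5/TCL1 spleen 4 at 5.27% and 2.27%, while Rps28 and Rpl38 differ among many spleens and peak in Eµ-PRMT5 spleen 2.

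In Eµ-PRMT5/TCL1 spleen 4 the ribosomal protein share was low in every class. It was 12.3% in B-like cells (21.3 to 32.2% in the other 12 spleens), 12.6% in T-like cells (22.5 to 35.9%), 6.83% in monocyte/macrophage-like cells (16.1 to 21.1%), 5.55% in plasma-like cells (8.34 to 18.7%) and 2.80% in neutrophil-like cells (5.01 to 9.17%). Cell-free droplets of this library had 14.5% of UMIs on members, against 18.8 to 34.3% in the other libraries. The lymph node of the same mouse, with 25.4% in B-like cells, was not low.

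The loss was not even over the members but followed the length of the coding sequence (GENCODE vM21). Compared with the mean CPM of Eµ-PRMT5/TCL1 spleens 1 to 3 in B-like cells, the 48 members with up to 500 coding bases all had a log2 ratio below 0. Their median was -2.17, that is 4.51-fold lower. The 18 members with more than 500 and up to 750 coding bases were also all below 0, with a median of -1.18 (2.27-fold). The 11 longer members had a median of 0.07. Of these, 5 of the 9 with up to 1000 coding bases were below 0, and 0 of the 2 with more. The highest ratios were those of Rpl3 (6480 against 3332 to 3691 CPM, log2 ratio 0.90), Rpl4 (2785 against 1476 to 1744 CPM, 0.80), Rplp0 (9746 against 5019 to 7585 CPM, 0.55), Rpsa (0.30) and Rps2 (0.17). Among the short ones, Rps27 had 719 CPM against 3271 to 5173 (-2.55), Rps21 462 against 2328 to 2802 (-2.43) and Rpl39 876 against 3589 to 5097 (-2.28). Over the 77 members the rank correlation of this ratio with coding length was 0.81 in B-like, 0.84 in T-like, 0.80 in monocyte/macrophage-like and 0.72 in neutrophil-like cells. Over the other genes it was 0.29 (2495 genes), 0.29 (2425), 0.36 (2690) and 0.29 (1798) in the same order. The share of other genes below or above every other spleen of the group is not given here. By the ratio alone, 319 of 450 other genes with up to 500 coding bases were below 0 in B-like cells, against 48 of 48 members. Over all lengths, 743 of 2519 other genes and 71 of 77 members were below 0. The members come from the same library and share its depth, so these values describe 1 library.

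The other classes repeated the pattern. The median log2 ratio of members with up to 500 coding bases was -2.29 in T-like, -2.49 in monocyte/macrophage-like and -2.07 in neutrophil-like cells, and that of the members over 750 bases was -0.11, -0.45 and 0.39. Other genes of short coding length in the B-like cells of this spleen were low as well. Fau, which encodes a ribosomal protein fused to a ubiquitin-like protein, had a log2 ratio of -1.96, while the longer TOP genes Pabpc1 and Eef2 had 1.14 and 1.08. The median was -1.25 for 22 mitochondrial ribosomal protein genes and -0.83 for 450 other genes with up to 500 coding bases, and 0.53 for 1267 other genes with over 1000. As a share of all B-like UMIs, members of up to 500 bases took 3.98% in this spleen and 12.3 to 18.9% in the other spleens, those of more than 500 and up to 750 bases 2.97% against 5.13 to 8.06%, and the longer ones 5.34%, within the 3.26 to 6.14% of the others. The same relation with length, measured on shares of member UMIs against the other spleens, was next strongest in Eµ-TCL1 spleen 4, with a rank correlation of 0.70 in B-like cells and a median log2 ratio of -0.13 for members of up to 500 bases. What sets this library apart was not tested.

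**Figure D5:**
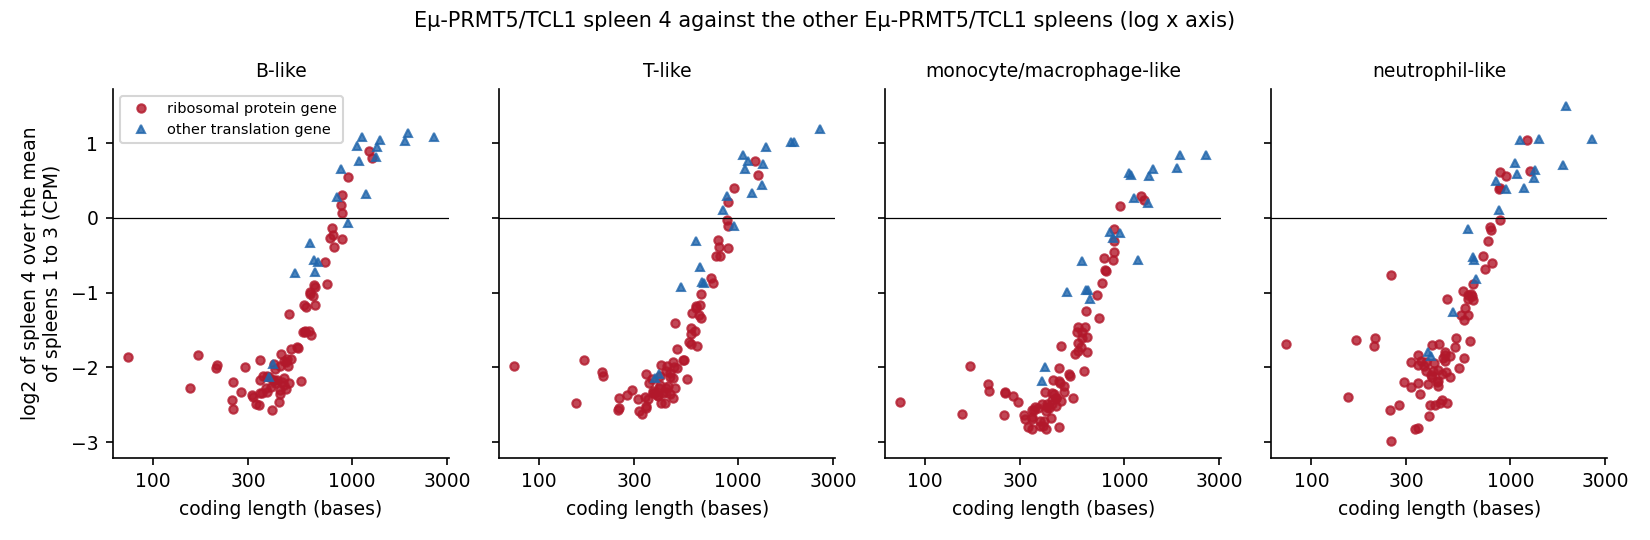
For each gene the log2 ratio of CPM in Eµ-PRMT5/TCL1 spleen 4 over the mean of Eµ-PRMT5/TCL1 spleens 1 to 3 (vertical axis) is drawn against coding length in bases (horizontal log axis) in 4 cell classes, with red circles for ribosomal protein genes and blue triangles for other translation genes with a TOP tract. Circles under 500 bases lie near -2 in all 4 panels, and both kinds of gene rise towards and above 0 with length.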

How the data were processed

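The authors deposited raw 10x 3′ UMI counts per gene and barcode for 20 libraries (31053 genes, GRCm38). The processing notes name Cell Ranger 2.0.1 and Seurat 2.2.1, and per the file headers the matrices were written by Cell Ranger 3.1.0. Cells were barcodes with UMIs no fewer than the 99th percentile of the top 3000 barcodes divided by 10, with 200 genes or more and mitochondrial UMIs of 10% or less. Scrublet scores were used to remove 0.8% per 1000 cells as doublets, because its automatic threshold marked only 659 of 87789. Leiden clustering (scanpy 1.11.5, 2000 variable genes, 30 components, 15 neighbours, resolution 1) left out the ribosomal protein genes, and clusters were named from markers.

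UMIs were summed by library and class (at least 30 cells, 50 for quintiles). Shares were compared by exact two-sided permutation or sign-flip tests (scipy 1.17.1), and genes by edgeR 4.0.16 (R 4.3.3) with Benjamini-Hochberg adjustment at 0.05, with DESeq2 1.42.0 as an alternative. Class and tissue comparisons had the mouse as a block. The steps were tested on simulated data. Named members were, per comparison, up to 6 each way with the lowest adjusted p among those called or, where none was, the 2 with the lowest unadjusted p, the 3 highest and 3 lowest by log2 change between classes, the 5 with most and 5 with fewest UMIs, the 5 of largest spread, and paralogs. Rps27a by steadiness and members by their relation to UMIs per cell were chosen after their values were seen. A few genes that this rule names are not reported here. The members and lists were chosen with earlier results of these data known.

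Deviations of same-mouse tissues correlated at 0.115 to 0.749 in B-like (7 pairs) and -0.0804 to 0.479 in T-like cells (6 pairs), and the pairs come from the labels. Replicate numbers of spleens correlated above 0.1 in every pair for Eµ-PRMT5/TCL1 against Eµ-PRMT5 T-like cells (0.219 to 0.285, 3 pairs) and in no other comparison with 3 or more pairs. Alternatives were other scalings, filters, denominators, cell sets, clusterings, covariates and leaving out each library. Intervals and floors cover counting error only.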

Additional observations from a re-analysis of the deposited data

Results flagged for a closer look

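Of 12 groups of 4 or more libraries, in which the ribosomal protein share of the lowest or highest library was set against the rest, 2 held a library far from the others by Dixon's criterion, which flags about 1 group in 20 by chance. In monocyte/macrophage-like cells Eµ-PRMT5/TCL1 spleen 4 had 6.83%, where the other 3 spleens of the group had 19.6 to 21.1% (gap over range 0.889, critical value 0.829). In T-like cells Eµ-TCL1 spleen 1 had 22.5%, where the other 3 had 34.1 to 35.5% (gap over range 0.887).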

How the results depend on the processing

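Of the share results, 162 of 183 values under other settings and 197 of 230 with 1 library left out kept their direction and side of the threshold. Of the counts of members called, 98 of 108 and 118 of 119 stayed within 1.5 times. Of the named members, 386 of 412 and 495 of 525 were the same and 0 reversed. With immunoglobulin UMIs out of the denominator, T-like minus plasma-like was 9.14 points and plasma-like minus monocyte/macrophage-like 1.11. With mitochondrial UMIs out as well these were 9.55 and 1.27, and the plasma-like difference between quintiles -0.16. Without cells above the 95th percentile of UMIs, Eµ-PRMT5/TCL1 minus Eµ-PRMT5 B-like was 0.067, B-like minus plasma-like 7.15, T-like minus plasma-like 5.82, plasma-like minus monocyte/macrophage-like -0.096 and the plasma-like quintiles -0.34. That filter left 2 spleens with at least 30 plasma-like cells. With medians over cells, Eµ-PRMT5/TCL1 minus Eµ-PRMT5 B-like was 0.38, Eµ-PRMT5 minus Eµ-TCL1 T-like 0.11 and plasma-like minus monocyte/macrophage-like -5.32. At clustering resolution 2, Eµ-PRMT5 minus Eµ-TCL1 T-like was 0.20 and plasma-like minus neutrophil-like 5.83, now past the threshold. With 3 of the 4 unnamed clusters added, which was chosen after seeing the data, the lymph node T-like difference was -0.80, the T-like quintiles differed by 3.42 (now past it) and 26 members were called between B-like and T-like cells, as with the T-led cluster alone. Without the Mpo-led cells plasma-like minus monocyte/macrophage-like was -4.18. Ordered by UMIs of other genes, the quintiles differed by 0.97 (B-like), -3.34 (T-like) and -1.07 (plasma-like). DESeq2 called 10 members in lymph node T-like cells, 2 between tissues in T-like cells and 10 between B-like and plasma-like cells, where 75 were called without TMM factors and 13 at resolution 2. With no replicate block for the mouse, 10 (B-like against T-like), 1 (plasma-like) and 31 (monocyte/macrophage-like) members were called. The percentage of all genes called is not given for these fits or for resolution 2. These counts therefore show nothing particular to the members. With replicate numbers as a block, 0 members were called in every genotype comparison, as without it. With sex read from Xist as a covariate the member medians were -0.33 and -0.50 (Eµ-PRMT5 and Eµ-PRMT5/TCL1 against Eµ-TCL1, B-like spleens), with 0 called. The cause of these changes was not tested.

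Leaving out 1 library gave -2.50 to 0.947 points (Eµ-PRMT5 minus Eµ-TCL1), -3.07 to 3.31 (Eµ-PRMT5/TCL1 minus Eµ-TCL1), -2.39 to 3.99 (Eµ-PRMT5/TCL1 minus Eµ-PRMT5) and -0.886 to 1.83 (node minus spleen) in B-like cells. In T-like cells the first 3 were -3.35 to 0.980, -6.75 to 1.34 and -6.10 to 1.68. B-like minus plasma-like was 9.61 to 12.3, T-like minus plasma-like 14.2 to 18.5 and plasma-like minus monocyte/macrophage-like -6.85 to -4.85. Members called in lymph node T-like cells were 0 to 64, the latter without Eµ-TCL1 node 3.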
